A study of Drosophila melanogaster with 8 samples.

Results

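Cytochrome P450 enzymes are haem proteins that insert an oxygen atom into fatty acids, hormones, cuticular lipids, plant compounds and insecticides. In insects the microsomal P450s of the Cyp4, Cyp6, Cyp9 and Cyp28 families take their electrons from P450 reductase, whereas mitochondrial P450s such as those of the Cyp12 family take them from a ferredoxin. In the fly head such enzymes work in fat body, cuticle, glia and antennae, and many Cyp6 genes are induced by foreign compounds.

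The genes described here were taken as every symbol that starts with Cyp and a digit, read by a probe set annotated to that symbol alone. This rule found 83 symbols among the 11981 genes with a probe set of their own. Cyp1 and Cyp40 are cyclophilins, which are prolyl isomerases and not P450s, and both were taken out. The remaining 81 P450 genes were read by 83 probe sets, since Cyp12e1 and Cyp18a1 had 2 each, of which the one with the higher mean over the 8 arrays was used. Cyp12d1-p and Cyp9f3, also named as P450s in RefSeq, had no probe set annotated to them alone and were not analysed here.

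RNA came from whole adult heads of 4 wild type samples of the W118 strain (WT) and of 4 samples in which GMR-Gal4 drove UAS-Hexim-RNAi (HEXIM knockdown), all with 29°C as the rearing temperature in the labels. HEXIM holds the transcription elongation factor P-TEFb in an inactive complex, and the comparison asked how its loss in the eye altered transcripts. GMR-Gal4 is active in differentiating eye cells, so most cells of the head did not carry the knockdown by design. WT flies carried neither driver nor transgene, and no matched genetic background is stated. Driver, transgene and any background difference therefore cannot be told apart from the knockdown. Hexim itself had a log2 fold change of -0.33 ± 0.10 (SE, limma adjusted p = 0.418). Its knockdown arrays, at log2 levels of 7.52 to 7.77, all lay below its WT arrays, at 7.79 to 8.14.

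Each array gave 1 log2 level for each probe set, and array medians lay between 5.43 and 5.57. Pairs of arrays correlated at 0.974 to 0.997 across probe sets, and a principal component analysis set 3 of the arrays off, namely replicates 1 and 3 of WT with replicate 4 of the knockdown. Differences are given as HEXIM knockdown minus WT on the log2 scale, from a limma fit to all 18769 probe sets, and a gene was called at a Benjamini-Hochberg adjusted p under 0.05. Fewer cells of a type and less RNA in each cell cannot be told apart in such samples.

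In WT heads, P450 levels covered most of the range of the array. The mean WT level was under 4 for 7 genes, from 4 to 5 for 14, from 5 to 7 for 27, from 7 to 9 for 26 and at least 9 for 7. Probe sets differ in how strongly they bind, so these bins describe signal and do not rank transcripts. The 5 genes Cyp303a1, Cyp313a5, Cyp316a1, Cyp6a17 and Cyp6a18 stayed below the lower quartile of probe sets on each of the 8 arrays. Cyp303a1 acts in sensory organs and Cyp6a17 in temperature preference. The 7 genes with a mean of at least 9 were Cyp28a5, Cyp28d1, Cyp313a1, Cyp4p1, Cyp6a20, Cyp6d5 and Cyp9f2. Cyp6a20 is known for its effect on aggression and Cyp28d1 for nicotine metabolism. By family, WT means ran from 4.14 to 9.17 in Cyp4, from 3.08 to 10.22 in Cyp6, from 5.31 to 9.66 in Cyp9, from 5.14 to 7.73 in Cyp12 and from 3.11 to 11.64 in Cyp3xx, which stands for the families whose number has 3 digits.

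A single P450 gene rose in the HEXIM knockdown and none fell at the adjusted threshold. Over all probe sets, 0.144% were called higher and 0.112% lower. At an unadjusted p under 0.05, 10 P450 genes were higher and 4 lower, beside 2.84% and 4.4% of all probe sets. Differences ran both ways, with 44 positive and 37 negative values and a median of 0.02, against -0.02 for all probe sets. Positive values made up 54.3% of the P450 genes and 44.6% of all probe sets. The sign counts of families and lists below have this 44.6% as their background. The difference was smaller than 0.2 in either direction for 47 of the 81 genes.

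**Figure D1:**
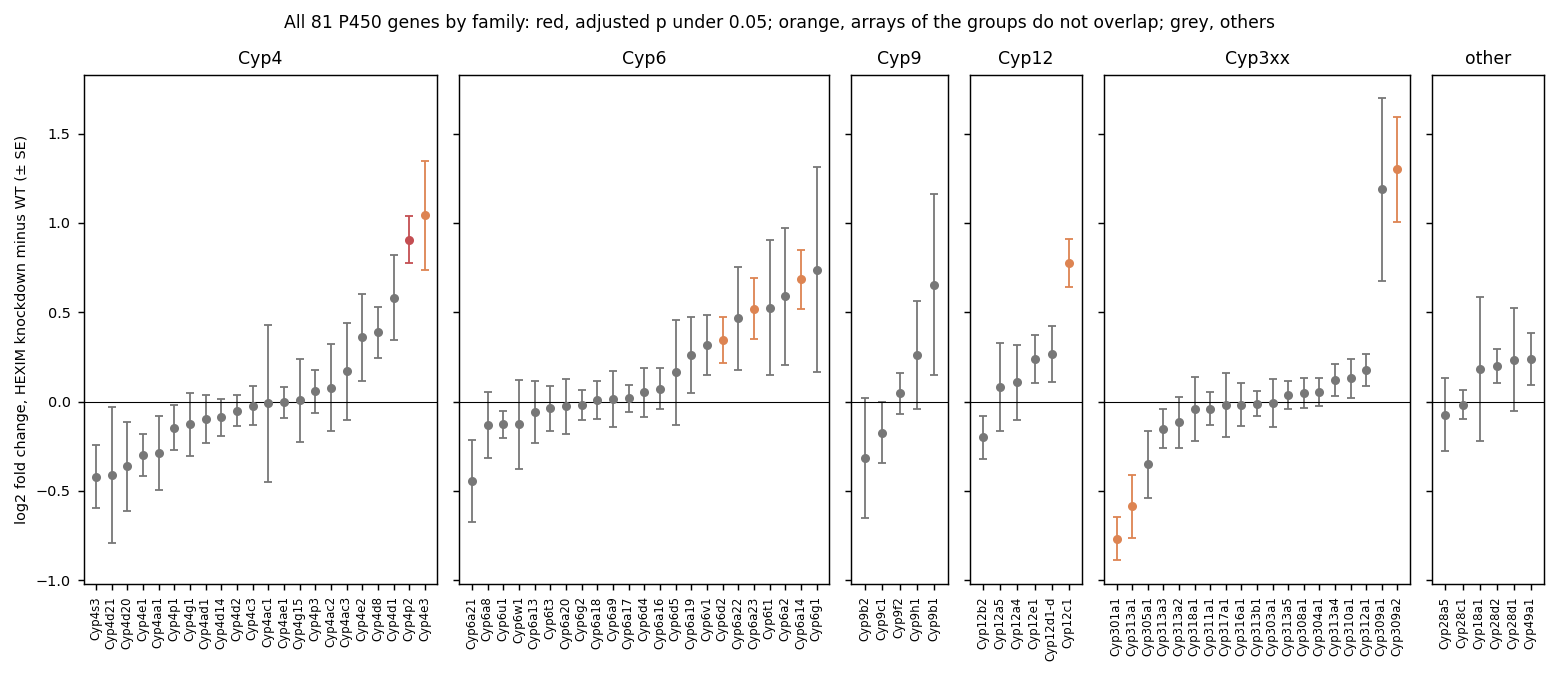
Log2 fold change of each of the 81 P450 genes, HEXIM knockdown minus WT, with the limma SE as bars (4 arrays in each group), ordered within each family. Most genes lie near 0 and the extremes are Cyp309a2 at 1.30 and Cyp301a1 at -0.77.

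The gene that rose was Cyp4p2, a member of the Cyp4 family. Its WT levels were 8.65, 8.37, 8.55 and 8.20, and its HEXIM knockdown levels were 9.11, 9.37, 9.32 and 9.59. Every knockdown array lay above every WT array, and replicate 1 was the knockdown array nearest to WT. The log2 fold change was 0.91 ± 0.13 (SE, limma adjusted p = 0.0485), or 1.87-fold. The call was near the threshold: with 1 array left out the adjusted p was 0.0388 to 0.204, and it passed only without HEXIM knockdown replicate 1. Its chromosomal neighbours Cyp4p1 and Cyp4p3 had log2 fold changes of -0.15 (SE 0.13) and 0.06 (SE 0.12), both with adjusted p = 1.00.

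In 9 P450 genes the arrays of the 2 groups did not overlap, 7 with the knockdown above and 2 with it below. Such separation was seen in 1.99% of all probe sets upward and 3.37% downward, that is 5.35% together against 11.1% of the P450 genes. For a single gene it gives an exact two-sided permutation p of 0.0286, the smallest that 4 arrays against 4 allow. All 9 were among the 60 genes with a mean level of at least 5, where 7.41% of all probe sets were separate, and none among the 21 dimmer ones, where 2.75% were. Besides Cyp4p2, none of the 9 passed the adjusted threshold. HEXIM knockdown replicate 1 was the highest of the 8 arrays for Cyp12c1, Cyp309a2, Cyp4e3, Cyp6a14, Cyp6a23 and Cyp6d2, but not for Cyp4p2. Without that array these genes, in the same order, differed from WT by 0.66, 1.02, 0.84, 0.60, 0.38, 0.27 and 0.98.

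**Figure D2:**
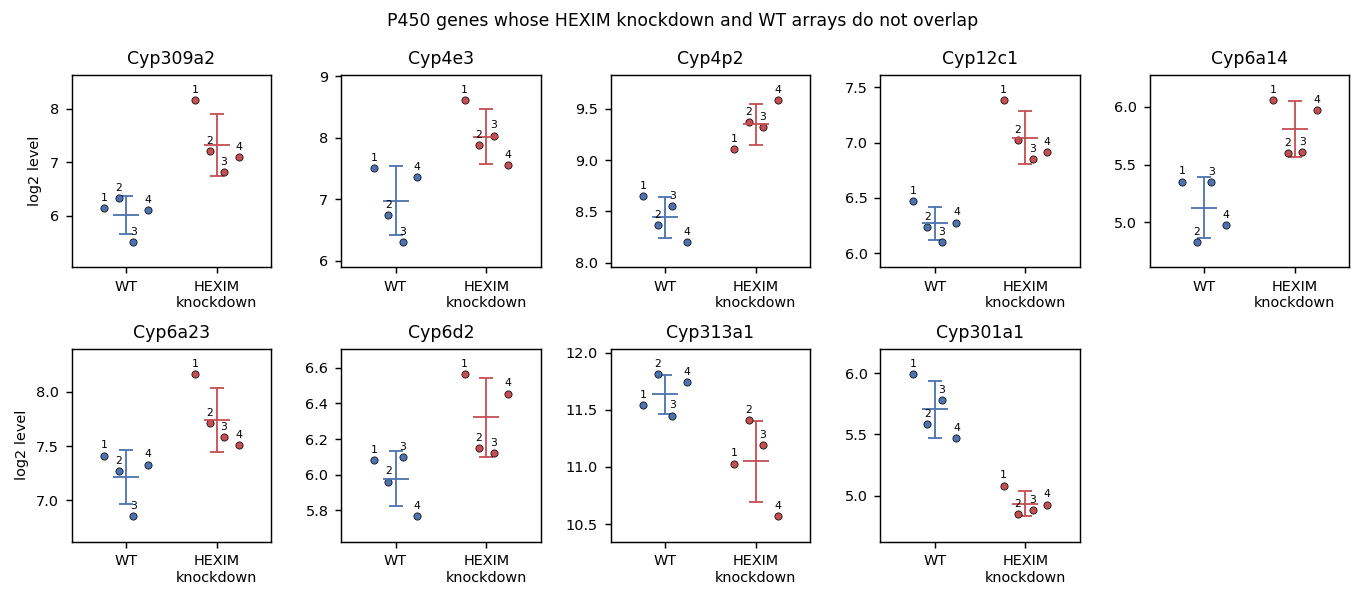
Log2 level of the 9 P450 genes whose groups did not overlap, in each WT (blue) and HEXIM knockdown (red) array, with replicate numbers, the mean and the SD (n = 4). Cyp4p2 is the gene that passed the adjusted threshold, and Cyp313a1 and Cyp301a1 are those with the knockdown below WT.

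Cyp309a2 had the largest difference of the 81 genes. It stood at 6.14, 6.34, 5.52 and 6.11 in WT and at 8.17, 7.22, 6.82 and 7.10 in the HEXIM knockdown, a log2 fold change of 1.30 ± 0.29 (SE, limma adjusted p = 0.215). Replicate 1 was the highest of the knockdown arrays, but the other 3 also lay above every WT array. The adjacent Cyp309a1 stood at 6.66, 6.44, 5.85 and 6.89 in WT and at 9.23, 7.65, 6.72 and 7.01 in the knockdown. Its groups overlapped and its log2 fold change of 1.19 ± 0.51 (SE, limma adjusted p = 0.681) was 0.66 without HEXIM knockdown replicate 1. Both values were positive, and of this pair only Cyp309a2 had separate groups.

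Among the Cyp4 genes, Cyp4e3, which has been tied to permethrin tolerance, stood at 7.50, 6.74, 6.31 and 7.36 in WT. In the HEXIM knockdown it stood at 8.61, 7.88, 8.04 and 7.55, a log2 fold change of 1.04 ± 0.31 (SE, limma adjusted p = 0.375). The lowest knockdown array was only just above the highest WT array. Cyp4d1 had a log2 fold change of 0.58 ± 0.24 (SE, limma adjusted p = 0.626) and Cyp4d8 of 0.39 (SE 0.14, limma adjusted p = 0.546). Cyp4e1 went the other way, at -0.30 (SE 0.12, limma adjusted p = 0.61). The groups overlapped for each of these genes. The most negative Cyp4 values were those of Cyp4s3 at -0.42 (SE 0.18), Cyp4d21 at -0.41 (SE 0.38) and Cyp4d20 at -0.36 (SE 0.25). With 1 array left out, Cyp4d21 lay between -0.68 without WT replicate 3 and -0.17 without WT replicate 2, and Cyp4d20 between -0.56 without HEXIM knockdown replicate 1 and -0.15 without HEXIM knockdown replicate 4. Cyp4d21, also called sxe1, is a male-biased gene of the head fat body, and its WT arrays were themselves split, at 6.91, 8.12, 6.59 and 7.90.

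The Cyp4 genes with well known roles in cuticle and brain had differences smaller than their SE. Cyp4g1, the oenocyte enzyme that makes cuticular hydrocarbons, had a log2 fold change of -0.13 ± 0.18 (SE), and Cyp4g15, a P450 of the nervous system, of 0.01 (SE 0.23). Cyp4e2, among the brighter Cyp4 probe sets, was at 0.36 (SE 0.25). Over the 22 Cyp4 genes, 9 values were positive and 13 negative, with a median of -0.02 and 2 genes with separate groups.

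The 23 Cyp6 genes had 15 positive and 8 negative values, a median of 0.05 and 3 genes with separate groups, all upward. Without HEXIM knockdown replicate 1, 13 values were positive and 10 negative, with a median of 0.01. Cyp6a14 stood at 5.35, 4.83, 5.35 and 4.97 in WT and at 6.06, 5.60, 5.61 and 5.98 in the knockdown, a log2 fold change of 0.68 ± 0.16 (SE, limma adjusted p = 0.243). Cyp6a23 went from 7.41, 7.27, 6.86 and 7.33 to 8.16, 7.71, 7.58 and 7.51, a log2 fold change of 0.52 ± 0.17 (SE, limma adjusted p = 0.472). For Cyp6d2 the gap was narrow, since WT reached 6.10 and the lowest knockdown array was at 6.12 (log2 fold change 0.35, SE 0.13, adjusted p = 0.555). None of the 3 differences passed the adjusted threshold.

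The Cyp6 genes known from insecticide resistance differed in how far their arrays spread. Their WT ranges were 1.81 for Cyp6g1, 0.82 for Cyp6a2, 0.58 for Cyp6w1 and 0.31 for Cyp6a8. Cyp6g1, the gene of DDT and neonicotinoid resistance, stood at 8.49, 8.92, 7.41 and 9.21 in WT and at 10.67, 9.42, 8.05 and 8.84 in the knockdown. Its groups overlapped, and the log2 fold change of 0.74 ± 0.57 (SE, limma adjusted p = 0.987) was 0.26 without HEXIM knockdown replicate 1. Cyp6a2 was at 0.59 (SE 0.38), Cyp6a8, an inducible gene, at -0.13 (SE 0.19) and Cyp6w1 at -0.13 (SE 0.25). Cyp6a20 and Cyp6t3, the latter a steroidogenic P450, were at -0.03 (SE 0.16) and -0.04 (SE 0.13).

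In the Cyp12 family, 5 of 6 values were positive and the median was 0.17. Without HEXIM knockdown replicate 1 the count was 3 of 6 and the median 0.03, with Cyp12a4 and Cyp12a5 then below WT at -0.10 and -0.15. Cyp12c1 stood at 6.47, 6.23, 6.10 and 6.28 in WT and at 7.39, 7.02, 6.85 and 6.92 in the knockdown. The groups were separate by more than the SD of either, with a log2 fold change of 0.77 ± 0.13 (SE, limma adjusted p = 0.0932). Cyp12d1-d was at 0.27 (SE 0.16) and Cyp12a4, known from lufenuron resistance, at 0.11 (SE 0.21), while Cyp12b2 was at -0.20 (SE 0.12). The 5 Cyp9 genes lay between -0.31 for Cyp9b2 and 0.66 for Cyp9b1, and none had separate groups.

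Cyp301a1 had the most negative difference of the P450 genes. This mitochondrial P450 acts in the formation of the adult cuticle. Its WT levels were 5.99, 5.58, 5.78 and 5.47 and its HEXIM knockdown levels 5.08, 4.85, 4.88 and 4.93. All 4 knockdown arrays were low and close together, with a log2 fold change of -0.77 ± 0.12 (SE, limma adjusted p = 0.0607). It missed the threshold in the fit to all probe sets and passed it when only probe sets with a mean level of at least 5 were tested (adjusted p = 0.0481). Cyp313a1 stood at 11.54, 11.81, 11.45 and 11.74 in WT and at 11.03, 11.41, 11.19 and 10.57 in the knockdown (log2 fold change -0.59, SE 0.18, adjusted p = 0.393). The highest knockdown array was just below the lowest WT array. Of its relatives, Cyp313a2, Cyp313a3, Cyp313a4, Cyp313a5 and Cyp313b1, all had WT means under 5 and differences smaller than 0.2.

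The remaining families held Cyp18a1, Cyp49a1 and 4 Cyp28 genes, with differences from -0.07 to 0.24. Cyp18a1, which inactivates ecdysteroids, was at 0.18 (SE 0.40) and Cyp28d1 at 0.23 (SE 0.29), and both were below 0 without HEXIM knockdown replicate 1, at -0.26 and -0.08. The second probe set of Cyp18a1 gave 0.10 (SE 0.34), and that of Cyp12e1 gave 0.69 (SE 0.31) where the brighter one gave 0.24 (SE 0.13).

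Many P450 genes are tandem copies, and 44 of the 81 fell into 15 groups of neighbours. Such neighbours had at most 2 other protein-coding genes between them in the RefSeq annotation. Values within a group covered a range that was not tested. The 9 genes from Cyp6a22 to Cyp317a1 ranged from -0.44 for Cyp6a21 to 0.52 for Cyp6a23, and Cyp6a14 at 0.68 lay beside Cyp6a13 at -0.06. Cyp6g1 at 0.74 neighboured Cyp6g2 at -0.02 and Cyp6t3 at -0.04. Copies of similar sequence can share hybridization signal, so differences between close copies are uncertain.

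**Figure D3:**
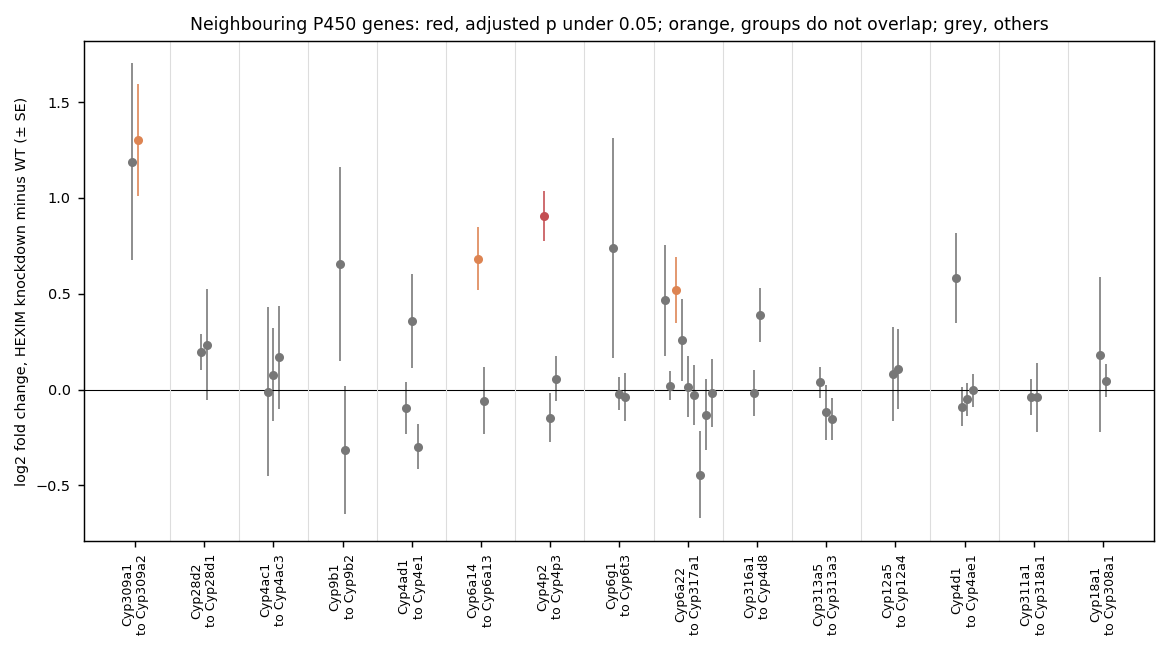
Log2 fold change (HEXIM knockdown minus WT) with the limma SE for the 44 P450 genes in 15 groups of neighbours, each group named by its first and last gene. The Cyp309a pair lies above 1, whereas Cyp4p2 lies apart from Cyp4p1 and Cyp4p3.

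A single array carried much of the spread. HEXIM knockdown replicate 1 was the highest of the 8 arrays for 36 of the 81 P450 genes (44.4%), against 13.7% of all probe sets. It exceeded the mean of the other 3 knockdown arrays by at least 0.5 in 31 P450 genes (38.3%), against 5.55% of all probe sets. These 31 comprised 11 Cyp6, 8 Cyp4, 4 Cyp3xx, 3 Cyp9 and 2 Cyp12 genes with Cyp18a1, Cyp28d1 and Cyp28a5. This array was singled out after its values were seen, so the shares are a description.

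**Figure D4:**
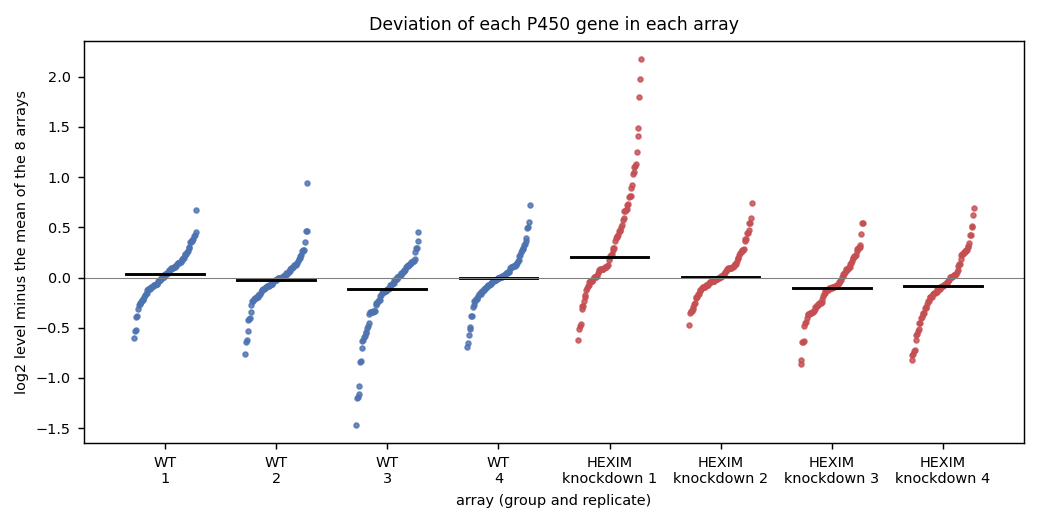
Level of each P450 gene in each array minus that gene's mean over the 8 arrays (log2), one point for each of the 81 genes, with the median as a bar. HEXIM knockdown replicate 1 reaches furthest above 0 and WT replicate 3 furthest below.

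The excess in replicate 1 was largest in Cyp9b1, which stood at 7.61 there and at 5.77, 4.99 and 5.47 in the other knockdown arrays, beside 4.796 to 5.526 in WT. Cyp9b2 stood at 9.27 against 8.06, 7.72 and 7.73, and Cyp18a1 at 8.96 against 7.43, 7.20 and 6.98. For Cyp9b2 the other 3 knockdown arrays all lay below every WT array, and with all 4 its log2 fold change was -0.31. Cyp6d5 stood at 11.33 against 10.14, 9.94 and 10.11, and Cyp28d1 at 11.16 against 10.16, 9.77 and 9.81. For Cyp6d5 and Cyp28d1 the other 3 knockdown arrays lay within the WT range or less than 0.2 from it.

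**Figure D5:**
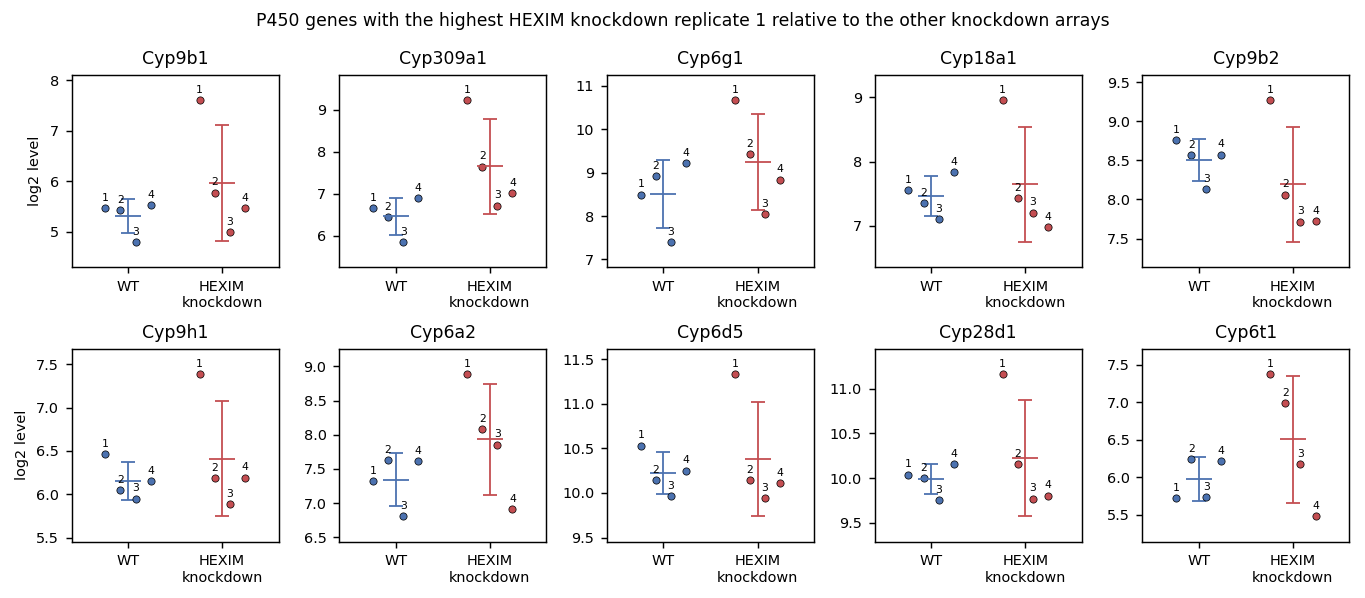
Log2 level in each array of the 10 P450 genes in which HEXIM knockdown replicate 1 most exceeded the other knockdown arrays, with the mean and SD (n = 4). WT is blue and HEXIM knockdown red, and the genes were picked for this pattern.

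Without that array, 38 P450 genes were higher and 43 lower than the WT mean (46.9% higher, against 47.8% of all probe sets). The median of the 81 genes was then -0.01, that of Cyp9 turned from 0.05 to -0.04 and that of the Cyp18, Cyp28 and Cyp49 genes from 0.19 to -0.07. Of the 31 genes, 11 were above and 20 below WT in the other 3 knockdown arrays, with a median of -0.13. The rule that picked the 31 favours low values in those 3 arrays, so this count is no separate result. At the low end, WT replicate 3 was the lowest WT array for 39 of the 81 genes (48.1%, against 18.4% of all probe sets) and for 28 of the 31. HEXIM knockdown replicate 1 was above all 7 other arrays in 27 of the 31, which the rule that picked these genes makes likely.

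Some marker lists had their extremes in these 2 arrays. The 4 markers of female heads (Yp1, Yp2, Yp3 and fit), of 4 listed, averaged 9.21 to 12.22 in WT, with replicate 3 lowest, and 11.31 to 12.91 in the knockdown, with replicate 1 highest. The 8 measured fat body markers, of 11 listed, averaged 9.46 to 9.99 in WT and 9.997 to 10.46 in the knockdown, again with WT replicate 3 lowest and knockdown replicate 1 highest. Fbp1 and Fbp2, the fat body markers with the largest differences (1.17 and 1.05), went the other way, being highest of WT in replicate 3 (8.48 and 9.78) and lowest of the knockdown in replicate 1 (8.54 and 9.54). Relative to the mean of the other knockdown arrays, replicate 1 differed by 0.27 for the fat body list, 0.00067 for neurons, 0.0067 for glia, -0.08 for antenna, -0.29 for muscle and -0.01 for haemocytes. It differed by 1.08 for the female head list and by 0.40 for the P450 genes. For the redox partners and glutathione transferases described below it differed by 0.66 and 0.495. Of the 4 listed male head markers only dsx was measured, at -1.03. The other lists lay between -0.29 and 0.16. Of the 8 fat body markers, 7 had positive differences, with a median of 0.28 and none called. The part of sex or fat body in the P450 differences was not tested.

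Partners and regulators of P450s were read from lists. Of 6 listed redox partners 4 were measured (Cyt-b5, Cyt-b5-r, Fdx1 and Fdx2) and none was called. Cpr and dare were not measured. Cyt-b5-r, a cytochrome b5 related protein, was highest in HEXIM knockdown replicate 1, at 11.63 against 10.68, 9.64 and 9.60 in the other knockdown arrays. It differed by 0.70 ± 0.51 (SE) between the groups. Fdx1 stood at 7.73 in that replicate against 7.69, 7.59 and 7.56, so the list did not shift evenly. Of 11 regulators, 1 fell: Met, a juvenile hormone receptor, stood at 6.72, 6.88, 6.62 and 6.77 in WT and at 5.08, 4.88, 5.04 and 5.04 in the knockdown, a log2 fold change of -1.74 ± 0.08 (SE, limma adjusted p = 0.000138). Hr96, the xenobiotic nuclear receptor, was at -0.25 (SE 0.06, adjusted p = 0.287) and maf-S, the partner of Cnc, at -0.25 (SE 0.07, adjusted p = 0.354), both with separate groups. The gene cnc itself, which drives many detoxification genes, was at 0.0042 (SE 0.14).

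Of the 6 ecdysone-synthesis P450s with other symbols, 5 were measured and none was called. Only sad had separate groups, at 8.34, 9.08, 8.58 and 8.55 in WT and 8.22, 8.21, 8.22 and 7.80 in the knockdown (log2 fold change -0.52, SE 0.17, adjusted p = 0.451).

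The other detoxification families were set beside the P450s. Glutathione transferases conjugate reactive compounds with glutathione, and of 34 measured 21 values were positive and 13 negative, with a median of 0.06 and none called. Their mean level was 7.92 in HEXIM knockdown replicate 1 and between 7.28 and 7.59 on the other 7 arrays, so the same array was highest as for the P450s. The Ugt genes encode enzymes that attach sugars, and of 35 measured 13 values were positive and 22 negative, with a median of -0.03 and none called.

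Marker lists of tissues and cell types were read in the same way, beside 44.6% positive differences over all probe sets. Photoreceptor markers, 8 of 10 measured, averaged 11.86 to 12.27 in WT and 11.72 to 12.06 in the knockdown, with 1 positive and 7 negative differences and none called. Oenocyte markers, 8 of 9 measured, averaged 7.53 to 7.92 in WT and 7.39 to 7.56 in the knockdown, with 2 positive and 6 negative differences and none called. The 7.92 was that of WT replicate 1, where FASN2 stood at 6.27 against 4.62, 4.26 and 4.58 in the other WT arrays. Glial markers, 6 of 7 measured, averaged 10.15 to 10.27 in WT and 9.96 to 10.09 in the knockdown, with 2 positive and 4 negative differences and none called. Among them moody, a receptor of the blood-brain barrier glia, had separate groups at -0.60 ± 0.10 (SE, limma adjusted p = 0.0731), and wrapper was at -0.41 (SE 0.14). Antennal markers, 6 of 7 measured, averaged 7.98 to 8.24 in WT and 7.89 to 8.83 in the knockdown, with 5 positive and 1 negative differences, a median of 0.22 and none called.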

How the data were processed

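Total RNA of 8 whole-head samples was measured on Affymetrix Drosophila_2 arrays. The authors deposited log2 levels, made with RMA in Affymetrix Expression Console per the labels' processing notes and with GCRMA per the methods. The software versions are not given in the sources used here. Groups followed the sample labels. Probe sets were named from the platform annotation, and neighbours and names were taken from RefSeq (Release 6). Neighbours followed the order of protein-coding genes by start position on each chromosome arm.

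After 183 control probe sets had been removed, 18769 probe sets entered the limma fit (version 3.58.1, R 4.3.3, functions lmFit and eBayes), with genotype as its sole term. The code was tested on simulated data. Python 3.11.15 with pandas 2.3.3, numpy 2.4.6 and matplotlib 3.10.9 made tables and figures. The number of arrays limits the precision.

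Named were called genes, genes with separate groups, the 6 highest and 6 lowest differences, the 3 highest WT means of each family and well-studied P450s. Members, lists and rules were chosen with earlier results of these data known. Genes named for the pattern of HEXIM knockdown replicate 1, for neighbouring or for dim signal were picked after their values were seen. Cyp4d1, Cyp4d8 and Cyp4e1 were also picked in this way. Alternatives were array weights, quantile normalization, median centring, a mean level of at least 5, a trended robust prior, the mean of a gene's probe sets, the replicate number as a block and leaving out each array. A fit without the 3 arrays apart was added after seeing the data.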

Additional observations from a re-analysis of the deposited data

Results flagged for a closer look

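In 6 of 162 groups of 4 arrays, 1 array lay far from the other 3, where chance gives about 1 in 20, or 8.1 groups. For Cyp6d5, HEXIM knockdown replicate 1 was high (11.33, others 9.94 to 10.14). WT replicate 3 was low for Cyp9b1 (4.796, others 5.43 to 5.53) and for Cyp9f2 (9.445, others 9.71 to 9.74). The other 3 were dim genes: Cyp304a1 was at 3.912 in HEXIM knockdown replicate 2 (others 3.82 to 3.83), Cyp6a16 at 4.157 in WT replicate 1 (others 4.33 to 4.36) and Cyp6a18 at 3.382 in HEXIM knockdown replicate 4 (others 3.01 to 3.07).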

How the results depend on the processing

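The number of P450 genes called higher was 1 in the reported fit, 5 with array weights, 0 with quantile normalization, 0 without the 3 arrays apart, and 0 to 1 with 1 array left out. The number called lower was 0, but 1 with array weights and 1 with a mean level of at least 5, in each case Cyp301a1. Array weights called 507 of all probe sets against 48, and gave HEXIM knockdown replicate 2 a weight of 9.035. The 9 genes with separate groups became 9 to 16 with 1 array left out, the most without HEXIM knockdown replicate 4, where 11.6% of all probe sets were separate against 5.35% in the reported fit, and 23 without the 3 arrays apart, where 26.6% of all probe sets were separate. Fewer arrays make separation easier by construction. The cause of the other changes was not tested.

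The labels number the replicates of each group and state no pairing. Deviations of same-numbered arrays from their group means had correlations of -0.11, 0.57, -0.19 and -0.72. Array-wide differences such as those of the 3 arrays apart enter these correlations, so they cannot settle whether the numbers pair the samples. With the replicate block 0 P450 genes were called higher, and 1 of all probe sets was called. Cyp4p2 had an adjusted p of 0.396 under the replicate block, 0.103 with quantile normalization and 0.119 without the 3 arrays apart. It kept its direction in every alternative, and no called gene changed sign. Since the groups of Cyp4p2 were separate, leaving out arrays, array weights or the block could not change its direction. The kept direction is therefore no support for the call. Without HEXIM knockdown replicate 1 the sign of 16 of the 81 differences changed, the median of the P450 genes was -0.01 in place of 0.02, and that of the Cyp18, Cyp28 and Cyp49 genes was -0.07 in place of 0.19. Signal over background was not measured in these values, and 21 genes had a mean level under 5.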
